A study of Mus musculus with 12 samples.

Results

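Ide encodes insulin-degrading enzyme, and it was examined here together with 6 genes that lie within 0.5 Mb of it on mouse chromosome 19: Fgfbp3, Exoc6, Cpeb3, Btaf1, Tnks2 and Hhex. These 7 genes were taken by symbol from a counts table of 24421 genes, and all 7 were among the 13065 genes that passed the filter on low counts. Ide was picked because its level stood high in the 5xFAD libraries, so its levels and fold changes are given as a description, without a test. The other 6 genes lie within 0.5 Mb of Ide, were chosen with earlier results of these data known, and were tested. The RefSeq annotation places 24 other genes within 0.5 Mb of Ide, of which 10 are protein coding. The counts table held 13 of these 24, among them all 10 coding genes, and 8 of the 13 passed the filter: the 6 neighbours named above, March5 and the long noncoding RNA 4931408D14Rik.

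The libraries were 3′ mRNA libraries of hippocampal RNA from mice 2 months old, all injected with BrdU, which dividing cells take up into new DNA. Each of 4 genotypes had 3 libraries, which the sample titles call biological replicates. WT mice carried neither modification. 5xFAD mice are a model of inherited Alzheimer's disease in which mutated human genes are expressed in neurons under control of the mouse Thy1 promoter. p75NTRko mice are labelled as lacking p75NTR, the neurotrophin receptor encoded by Ngfr, and the fourth genotype, 5xFAD/p75NTRko, is labelled as having both changes. The strain, the sex of the animals and the deleted part of Ngfr are not given in the sources used here. All 12 libraries carry 1 batch label.

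Insulin-degrading enzyme is a zinc metalloprotease of the M16 family that cuts insulin and other small peptides, and in the brain it is known as an enzyme that clears amyloid-beta. The genes around it have unrelated roles. Fgfbp3 encodes a secreted protein that binds fibroblast growth factors and releases them from the extracellular matrix. Cpeb3 binds the 3′ ends of mRNAs and regulates their translation at synapses. Btaf1 is an ATPase that removes the TATA-binding protein from DNA. Tnks2 is a tankyrase, an enzyme that attaches poly(ADP-ribose) to proteins such as axin. Exoc6 is a subunit of the exocyst, which tethers secretory vesicles to the plasma membrane, and Hhex is a homeobox transcription factor of blood, liver and endothelial development.

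In the GRCm38 build, which uses the same coordinates as mm10, Ide (ENSMUSG00000056999.15 in GENCODE) lies on the minus strand of chromosome 19, at 37268743 to 37334544 in RefSeq, and its coding transcript in GENCODE has 24 exons. Because QuantSeq reads come from the 3′ ends of transcripts, they fall near the lower-coordinate end of this gene. Toward lower coordinates lie Cpeb3 (37019341 to 37207620, minus strand, 61.1 kb from Ide), Btaf1 (36926079 to 37014057, plus strand, 255 kb), Fgfbp3 (36917550 to 36919599, minus strand, 349 kb) and Tnks2 (36834129 to 36893477, plus strand, 375 kb). Toward higher coordinates lie Hhex (37434841 to 37440731, plus strand, 100.297 kb) and Exoc6 (37536763 to 37684052, plus strand, 202 kb). Ide contains the pseudogene Rpl10-ps6, which is not a row of the table. Cpeb3 overlaps March5 (Marchf5 in RefSeq) and the long noncoding RNA A330032B11Rik, and since the strand setting of the counting is not given in the sources used here, reads in those overlaps cannot be told apart. A330032B11Rik itself had 0 to 6 counts a library.

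The 250 bases before the RefSeq start are shown for Ide and Fgfbp3, the 2 genes of the group whose levels were highest in 5xFAD by the widest margins. Both are on the minus strand and are written 5′ to 3′ on that strand, ending at the base before the start. Ide spans chr19:37334545-37334794 and Fgfbp3 spans chr19:36919600-36919849, both from RefSeq (GRCm38.p6). Capitals mark matches to a CCAAT box (CCAAT) or a TATA box (TATAAA) on either strand.
Ide: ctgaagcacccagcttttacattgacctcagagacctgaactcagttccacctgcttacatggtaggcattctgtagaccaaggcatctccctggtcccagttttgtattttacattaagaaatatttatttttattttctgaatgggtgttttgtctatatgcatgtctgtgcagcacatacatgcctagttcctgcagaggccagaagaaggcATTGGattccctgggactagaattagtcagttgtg
Fgfbp3: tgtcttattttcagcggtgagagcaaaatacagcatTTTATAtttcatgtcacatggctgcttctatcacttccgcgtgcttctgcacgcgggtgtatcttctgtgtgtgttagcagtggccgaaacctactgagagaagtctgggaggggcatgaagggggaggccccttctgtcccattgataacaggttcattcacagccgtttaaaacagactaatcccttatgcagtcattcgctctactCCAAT

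The Ide window had a GC content of 42.8% and held 0 CpG dinucleotides, and the Fgfbp3 window had a GC content of 47.2% and 8 CpG. Over 27025 RefSeq windows of the same length the medians were 52% and 6. Each of the 2 windows held 1 CCAAT box, starting 35 bases before the start in Ide, where it lies on the opposite strand, and 5 bases before it in Fgfbp3. A CCAAT box was found in 34.5% of all windows. Fgfbp3 also held 1 TATA box on the opposite strand, 214 bases before the start, a motif found in 13.0% of all windows. Neither window held a GC box (GGGCGG, 33.0% of all windows), an E-box (CACGTG, 6.04%) or a cAMP response element (TGACGTCA, 1.599%). The windows of the other 5 genes were richer in GC and CpG, from 58.4% and 17 CpG in Btaf1 to 78% and 36 CpG in Cpeb3. GC boxes were present in Exoc6, Cpeb3 and Hhex, with 5, 3 and 3 matches, and Btaf1 held 1 cAMP response element. For 6 of the 7 genes, all but Ide, the first transcribed bases after the window were found in a GENCODE transcript on the same strand. For Ide the RefSeq start matched no start of a GENCODE transcript, so the Ide window may not be the promoter used in hippocampus. The last bases of the Fgfbp3 window lie in the first exon of the GENCODE model. The last bases of the Hhex window, and the whole Cpeb3 and Ide windows, also lie within the spans of their GENCODE models.

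Depth was 4316740 to 6683610 counts in genes per library, so a gene with 3 counts had 0.445 to 0.689 CPM (counts per 1000000 in the library, on library sizes adjusted by the trimmed mean of M-values, TMM). Ngfr went against its label: its 3′ tags gave 0.166 to 1.94 CPM in the WT and 5xFAD libraries and 5.94 to 10.5 CPM in the libraries labelled p75NTRko or 5xFAD/p75NTRko. A 3′ tag outside the deleted part would not check a deletion, so these libraries are called p75NTRko-labelled and 5xFAD/p75NTRko-labelled. Thy1, whose promoter drives the transgenes, read 1594 to 4013 CPM in the 6 libraries labelled 5xFAD or 5xFAD/p75NTRko and 687 to 938 CPM in the other 6. Xist, the RNA of the inactive X chromosome, separated the libraries in another way. It was 359 to 439 CPM in all WT, all 5xFAD/p75NTRko-labelled and p75NTRko-labelled replicate 1. It was 1.53 to 3.57 CPM in all 5xFAD libraries and p75NTRko-labelled replicates 2 and 3. The Y-chromosome genes Ddx3y, Uty, Eif2s3y and Kdm5d together read 156 to 200 CPM in the low-Xist libraries and 0.331 to 1.36 CPM in the high-Xist ones. The low-Xist libraries thus read as male and the high-Xist ones as female, so Xist class stands for sex here. 5xFAD therefore differed in genotype and in Xist class at once from WT, and likewise from 5xFAD/p75NTRko-labelled. Genotype and Xist class cannot be told apart within either pair, and the interaction draws on the same libraries.

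Ide was higher in the 5xFAD libraries than in every other genotype, by a fold of 1.82 over 5xFAD/p75NTRko-labelled, 2.12 over WT and 2.21 over p75NTRko-labelled. In WT it read 27.9, 26.6 and 28.5 CPM in replicates 1 to 3, with a mean of 27.7 ± 0.982 (SD, n = 3). In 5xFAD it read 59.2, 58.9 and 58.0 CPM (58.7 ± 0.622). The 3 5xFAD values lay within about 1 CPM of each other, which is a smaller spread than read counting alone gives at this level: the coefficient of variation was 1.06%, and counting error alone is 5.65%.

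In the p75NTRko-labelled libraries Ide read 27.8, 24.8 and 26.9 CPM (26.5 ± 1.52). In the 5xFAD/p75NTRko-labelled libraries it read 36.2, 30.2 and 30.1 CPM (32.2 ± 3.52). The lowest 5xFAD library, at 58.0 CPM with an exact 95% Poisson interval of 51.3 to 65.2, stood above the highest of the other 9, 5xFAD/p75NTRko-labelled replicate 1, at 36.2 CPM with an interval of 31.6 to 41.4. These intervals cover counting error only. The values rest on 276 to 349 counts in 5xFAD and 108 to 218 counts in the other 9 libraries.

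**Figure D1:**
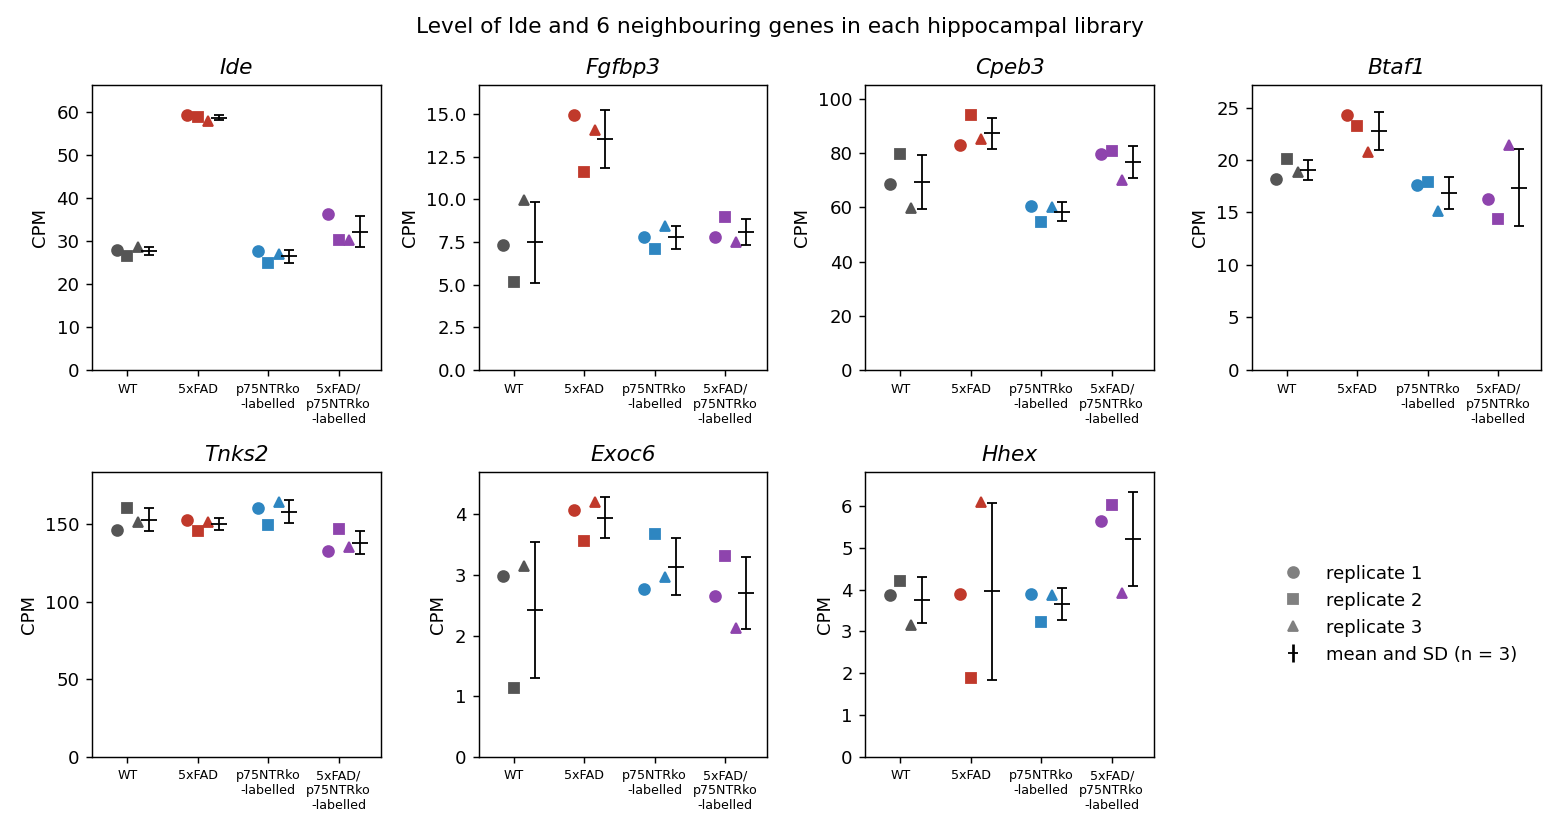
Level of Ide and the 6 genes near it in each of the 12 libraries, in CPM on TMM-scaled library sizes, with 1 panel a gene; points are libraries, grouped by genotype, and bars are the mean with 1 SD over 3 libraries. In the Ide panel the 5xFAD libraries sit between 58.0 and 59.2 CPM and no other library is above 36.2 CPM.

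Ranked by mean level, the genotypes ran 5xFAD, 5xFAD/p75NTRko-labelled, WT and p75NTRko-labelled. The 5xFAD libraries stood apart from the rest by far more than the spread within any genotype. The 5xFAD/p75NTRko-labelled libraries came next and lay just above WT, with 30.1 CPM as their lowest value against 28.5 CPM as the highest WT value. Leaving out their replicate 1 brings the 5xFAD/p75NTRko-labelled against WT log2 fold change from 0.22 to 0.12, and that against p75NTRko-labelled from 0.28 to 0.18. WT and p75NTRko-labelled values overlapped and did not differ beyond their spread.

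As log2 fold changes with standard errors from the edgeR fit over all 12 libraries, Ide stood at 1.08 ± 0.109 in 5xFAD against WT, a fold of 2.12. It stood at 1.15 ± 0.110 in 5xFAD against p75NTRko-labelled, at -0.87 ± 0.108 in 5xFAD/p75NTRko-labelled against 5xFAD, and at 0.28 ± 0.113 in 5xFAD/p75NTRko-labelled against p75NTRko-labelled. The remaining pairs were 0.22 ± 0.111 for 5xFAD/p75NTRko-labelled against WT and -0.06 ± 0.113 for p75NTRko-labelled against WT. The interaction of both labels, which is the 5xFAD difference among receptor-labelled mice minus that among the others, was -0.80 ± 0.156. Several of these comparisons share libraries, and none is tested here because Ide was chosen for this pattern. In tissue RNA such as this, a change in the number of cells of a type and a change in RNA per cell cannot be told apart.

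By the ratio of the lowest 5xFAD library to the highest of the other 9, Ide ranked 1 of 13065 genes, with a ratio of 1.599. The next genes were Usp9x, an X-linked deubiquitinase, at 1.55 and Ccdc37 at 1.49. Among the neighbours of Ide, Fgfbp3 ranked 20 with a ratio of 1.17 and Cpeb3 ranked 145 with 1.03. The remaining 4 neighbours had ratios under 1, since at least 1 other library reached their lowest 5xFAD value. All 3 5xFAD libraries were above all 9 others for 229 genes, or 1.75% of those tested, and these included 3 of the 7 genes described here: Ide, whose place is fixed by its choice, Fgfbp3 and Cpeb3. All 6 transgene carriers were above all 6 non-carriers for 46 genes (0.352%), of which Ide was the 1 member.

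Xist class separated 5xFAD from WT and from 5xFAD/p75NTRko-labelled, as Ide did. Thy1, like Ide, was higher in all 6 transgene carriers than in all 6 non-carriers. The part of either in the Ide level was not tested. The p75NTRko-labelled libraries with low Xist had Ide at 24.8 and 26.9 CPM, and the p75NTRko-labelled library with high Xist had 27.8 CPM. With Xist class as a term in the fit, the Ide log2 fold change in 5xFAD against WT was 1.19. That term rests on p75NTRko-labelled replicate 1 against replicates 2 and 3, the only genotype with both classes. It cannot separate genotype from Xist class in 5xFAD against WT or in 5xFAD/p75NTRko-labelled against 5xFAD. Thy1 was 3971, 4012 and 1594 CPM in 5xFAD replicates 1, 2 and 3, where Ide was 59.2, 58.9 and 58.0 CPM. Thy1 was 1778, 4013 and 3175 CPM in the 5xFAD/p75NTRko-labelled libraries, where Ide was 36.2, 30.2 and 30.1 CPM. Replicate 2 of 5xFAD and replicate 2 of 5xFAD/p75NTRko-labelled, with 4012 and 4013 CPM of Thy1, had Ide at 58.9 and 30.2 CPM.

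**Figure D2:**
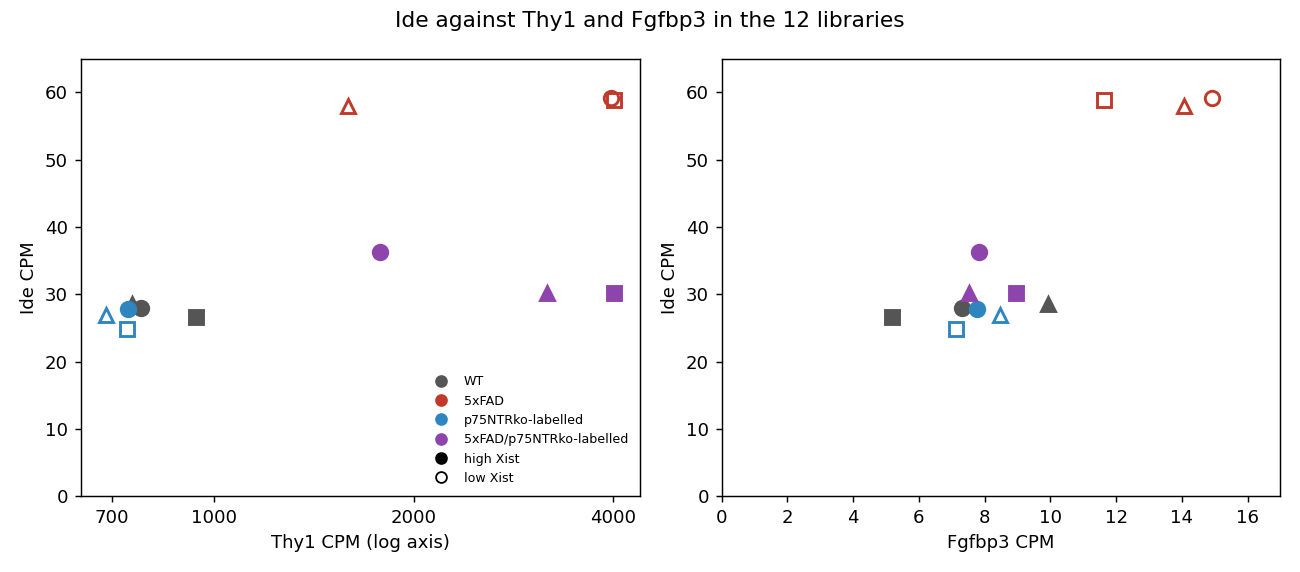
Ide level in CPM against the Thy1 level (left, log axis) and against the Fgfbp3 level (right) in the 12 libraries; colours are genotypes, circle, square and triangle are replicates 1, 2 and 3, and open symbols have low Xist. The 3 5xFAD libraries lie near 58 CPM of Ide at Thy1 levels from 1594 to 4012 CPM, and at the 3 highest Fgfbp3 levels.

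The other tissue in the dissection also differed between genotypes. A marker is called above 3 counts here if it passed 3 counts in any library, not in every library. Summed over 10 hippocampal neuron markers, all 10 of them above 3 counts, the WT libraries gave 752 to 1093 CPM and the 5xFAD libraries 1145 to 1384. The same sum was 1165 to 1327 CPM for the p75NTRko label alone and 879 to 1248 for both labels. The 10 thalamus and habenula markers, all above 3 counts, summed to 535 to 752 CPM in WT and 321 to 375 in 5xFAD, and to 282 to 334 for the p75NTRko label alone and 257 to 904 for both labels. The 10 choroid plexus markers, all above 3 counts, summed to 2412 to 5954 CPM in WT and 316 to 1936 in 5xFAD, and to 4431 to 7261 for the p75NTRko label alone and 175 to 7208 for both labels. All 3 sums thus separated 5xFAD from WT, as Ide did, and their part in the Ide level was not tested. The p75NTRko-labelled libraries had hippocampal neuron and thalamic sums that overlapped with those of 5xFAD, with Ide at 24.8 to 27.8 CPM. The 5xFAD/p75NTRko-labelled replicates 2 and 3 had choroid plexus sums of 175 and 359 CPM, within or below the 5xFAD range, with Ide at 30.2 and 30.1 CPM.

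The 8 endothelial markers (159 to 224 CPM), 6 microglial markers (407 to 497 CPM) and 8 oligodendrocyte markers (4034 to 7631 CPM) were all above 3 counts, and their WT and 5xFAD sums overlapped. Of 5 blood markers, the 4 globin genes were at 0 in every library. Reads without a unique alignment, 9.57 to 12.1% of each library's total, were not counted. Whether globin reads were among them was not tested, so the 0 counts do not show tissue free of blood.

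Across the 6 neighbours, the quasi-likelihood test of edgeR, adjusted by Benjamini-Hochberg over all 13065 genes, called 0 of 6 in all 7 comparisons. The shares of all genes called were 0.0536% in 5xFAD against WT, 0% in p75NTRko-labelled against WT, 0.0383% in 5xFAD/p75NTRko-labelled against 5xFAD, 0% in 5xFAD/p75NTRko-labelled against p75NTRko-labelled, 0% in 5xFAD/p75NTRko-labelled against WT, 0.0842% in 5xFAD against p75NTRko-labelled and 0.0383% in the interaction. DESeq2 also called 0 of 6 in 6 of the comparisons, and called 1, Cpeb3, in 5xFAD against p75NTRko-labelled. At an unadjusted p under 0.05, edgeR had 2 of the 6 higher in 5xFAD against WT (7.73% of all genes), 3 higher in 5xFAD against p75NTRko-labelled (4.6%) and 2 lower in 5xFAD/p75NTRko-labelled against 5xFAD (3.1%). In 5xFAD/p75NTRko-labelled against p75NTRko-labelled there was 1 higher (3.61%) and 1 lower (2.99%), and in the interaction 1 lower (4.13%). There were 0 in p75NTRko-labelled against WT (11.5% of all genes in either direction) and 0 in 5xFAD/p75NTRko-labelled against WT (9.95%). With Xist class as a term, 3 of the 6 had an unadjusted p under 0.05 in 5xFAD against p75NTRko-labelled. In each of the other comparisons 0 did, 5xFAD against WT among them. The Xist term rests on the p75NTRko-labelled libraries alone.

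Fgfbp3, the growth factor carrier 349 kb away, had the highest Pearson r with Ide among the neighbours, without passing the threshold; by Spearman rho Cpeb3 was slightly higher. It read 7.31, 5.19 and 9.94 CPM in WT (7.48 ± 2.38) and 14.9, 11.6 and 14.1 CPM in 5xFAD (13.5 ± 1.71). It read 7.77, 7.12 and 8.46 CPM in p75NTRko-labelled libraries (7.78 ± 0.672) and 7.81, 8.95 and 7.53 CPM in 5xFAD/p75NTRko-labelled libraries (8.10 ± 0.753). The 3 5xFAD values were the highest of the 12, and the other 3 genotypes overlapped one another.

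The log2 fold change of Fgfbp3 in 5xFAD against WT was 0.86 ± 0.218 (95% interval 0.39 to 1.32), with an unadjusted p of 0.00142 and an adjusted p of 0.176 in edgeR. Against p75NTRko-labelled it was 0.79 ± 0.220 (adjusted p = 0.256), and in 5xFAD/p75NTRko-labelled against 5xFAD it was -0.74 ± 0.219 (adjusted p = 0.645). The interaction was -0.81 ± 0.316, with an unadjusted p of 0.0220 and an adjusted p of 0.488. Between the receptor-labelled genotypes it was 0.05, with a 95% interval of -0.44 to 0.54. Fgfbp3 had 31 to 88 counts a library. Without WT replicate 3, the WT library with the highest value, the 5xFAD against WT fold change was 1.10 and the adjusted p was 0.0491, and without WT replicate 2, the lowest, they were 0.65 and 0.404. With Xist class as a term the fold change was 0.84, with an unadjusted p of 0.0679 and an adjusted p of 0.949.

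Cpeb3, the translational regulator 61.1 kb from Ide on its 3′ side, had its highest mean in 5xFAD and its lowest in the p75NTRko-labelled libraries. No comparison passed the threshold in the main edgeR fit. It read 68.6, 79.6 and 59.6 CPM in WT (69.3 ± 9.98) and 83.1, 93.9 and 85.3 CPM in 5xFAD (87.4 ± 5.75). It read 60.7, 54.6 and 60.1 CPM in p75NTRko-labelled (58.5 ± 3.34) and 79.6, 80.8 and 70.1 CPM in 5xFAD/p75NTRko-labelled libraries (76.8 ± 5.88). The 5xFAD values lay above all others, by a narrow margin over 5xFAD/p75NTRko-labelled replicate 2, and WT overlapped with both receptor-labelled genotypes.

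In 5xFAD against p75NTRko-labelled the log2 fold change of Cpeb3 was 0.58 ± 0.114 (95% interval 0.33 to 0.82), rank 30 of all genes by p, with an adjusted p of 0.0657 in edgeR. This value lay close to the threshold: the adjusted p was 0.00445 with DESeq2, 0.0411 without the filter on low counts and 0.00398 with only those 6 libraries in the fit. It was 0.0345 without WT replicate 2 and 0.0413 without 5xFAD/p75NTRko-labelled replicate 3. It rose to 0.118 with the replicate block, to 0.181 with Xist class as a term, and to between 0.185 and 0.362 with any 1 of the 5xFAD or p75NTRko-labelled libraries left out. In 5xFAD against WT it was 0.34 ± 0.113 (adjusted p = 0.261), and in 5xFAD/p75NTRko-labelled against p75NTRko-labelled 0.39 ± 0.114 (adjusted p = 0.622). It was -0.19 ± 0.113 (adjusted p = 0.980) in 5xFAD/p75NTRko-labelled against 5xFAD, and the interaction was 0.06 with a 95% interval of -0.29 to 0.40. For comparison, the Ide interaction was -0.80. The low-Xist p75NTRko-labelled libraries had Cpeb3 at 54.6 and 60.1 CPM, and the high-Xist one had 60.7 CPM; the part of Xist class in the 5xFAD values was not tested.

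Btaf1, the ATPase that acts on the TATA-binding protein, varied over a smaller range. It read 18.2, 20.1 and 18.9 CPM in WT (19.1 ± 0.957) and 24.2, 23.3 and 20.8 CPM in 5xFAD (22.8 ± 1.77). The p75NTRko-labelled libraries gave 17.6, 17.9 and 15.1 CPM (16.9 ± 1.51), and the 5xFAD/p75NTRko-labelled ones 16.3, 14.4 and 21.4 CPM (17.4 ± 3.64). 5xFAD libraries were above all WT and p75NTRko-labelled ones, and 5xFAD/p75NTRko-labelled replicate 3 reached into their range. The log2 fold changes were 0.26 ± 0.154 in 5xFAD against WT (adjusted p = 0.460), 0.44 ± 0.157 in 5xFAD against p75NTRko-labelled (adjusted p = 0.462) and -0.39 ± 0.156 in 5xFAD/p75NTRko-labelled against 5xFAD (adjusted p = 0.878).

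Tnks2, the tankyrase, had 5xFAD and WT values that overlapped. It read 146, 161 and 152 CPM in WT (153 ± 7.49) and 153, 146 and 152 in 5xFAD (150.2 ± 3.90). The p75NTRko-labelled libraries gave 161, 149.9 and 164 CPM (158 ± 7.48), and the 5xFAD/p75NTRko-labelled ones 133, 147 and 135 CPM (138 ± 7.64). The log2 fold change in 5xFAD against WT was -0.03, and its 95% interval of -0.20 to 0.15 leaves out a change of the size seen for Ide. The 5xFAD/p75NTRko-labelled libraries were all below the p75NTRko-labelled ones, at -0.20 ± 0.0827 (unadjusted p = 0.0319, adjusted p = 0.739 in edgeR).

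Exoc6 and Hhex were measured at low depth, 7 to 24 and 10 to 34 counts a library. Exoc6, the exocyst subunit, read 2.98, 1.13 and 3.15 CPM in WT and 4.07, 3.56 and 4.20 CPM in 5xFAD. The p75NTRko-labelled libraries gave 2.78, 3.67 and 2.97 CPM, and the 5xFAD/p75NTRko-labelled ones 2.66, 3.31 and 2.13 CPM. 5xFAD was above WT in every library, while p75NTRko-labelled replicate 2 reached the 5xFAD range. Its log2 fold change in 5xFAD against WT was 0.69 ± 0.353 (adjusted p = 0.393), and the 95% interval of -0.06 to 1.45 includes both 0 and the value of Ide. Without WT replicate 2, the lowest library, the fold change was 0.36, and with Xist class as a term it was 0.45. Hhex, the homeobox factor, read 3.88, 4.21 and 3.15 CPM in WT and 3.90, 1.88 and 6.09 CPM in 5xFAD. The p75NTRko-labelled libraries gave 3.89, 3.21 and 3.86 CPM, and the 5xFAD/p75NTRko-labelled ones 5.65, 6.03 and 3.93 CPM. The 5xFAD values of Hhex spanned the whole range of the 12 libraries. Its log2 fold change against WT was 0.06 with a 95% interval of -0.69 to 0.82, and -0.36 without 5xFAD replicate 3 and 0.39 without 5xFAD replicate 2.

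Taking groups that do not overlap in place of a test, 4 of the 6 neighbours (Fgfbp3, Cpeb3, Btaf1 and Exoc6) were higher in all 5xFAD than in all WT libraries, where 10.5% of all genes were. In 5xFAD against p75NTRko-labelled 3 of 6 were (Fgfbp3, Cpeb3 and Btaf1), against 9.78% of all genes. Fgfbp3, Cpeb3 and Exoc6, 3 of 6, were lower throughout in 5xFAD/p75NTRko-labelled against 5xFAD, against 6.02% of all genes. These comparisons share the 5xFAD libraries, so a high 5xFAD library enters each of them. In each of them March5 and 4931408D14Rik, the 2 other tested genes within 0.5 Mb, overlapped. The 6 were chosen with earlier results of these data known. In p75NTRko-labelled against WT, Btaf1 alone of the 6 was lower throughout (8.51% of all genes). In 5xFAD/p75NTRko-labelled against p75NTRko-labelled, Cpeb3 and Hhex were higher (6.54%) and Tnks2 lower (5.74%) throughout, and against WT none of the 6 separated (11.5% of all genes in either direction).

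**Figure D3:**
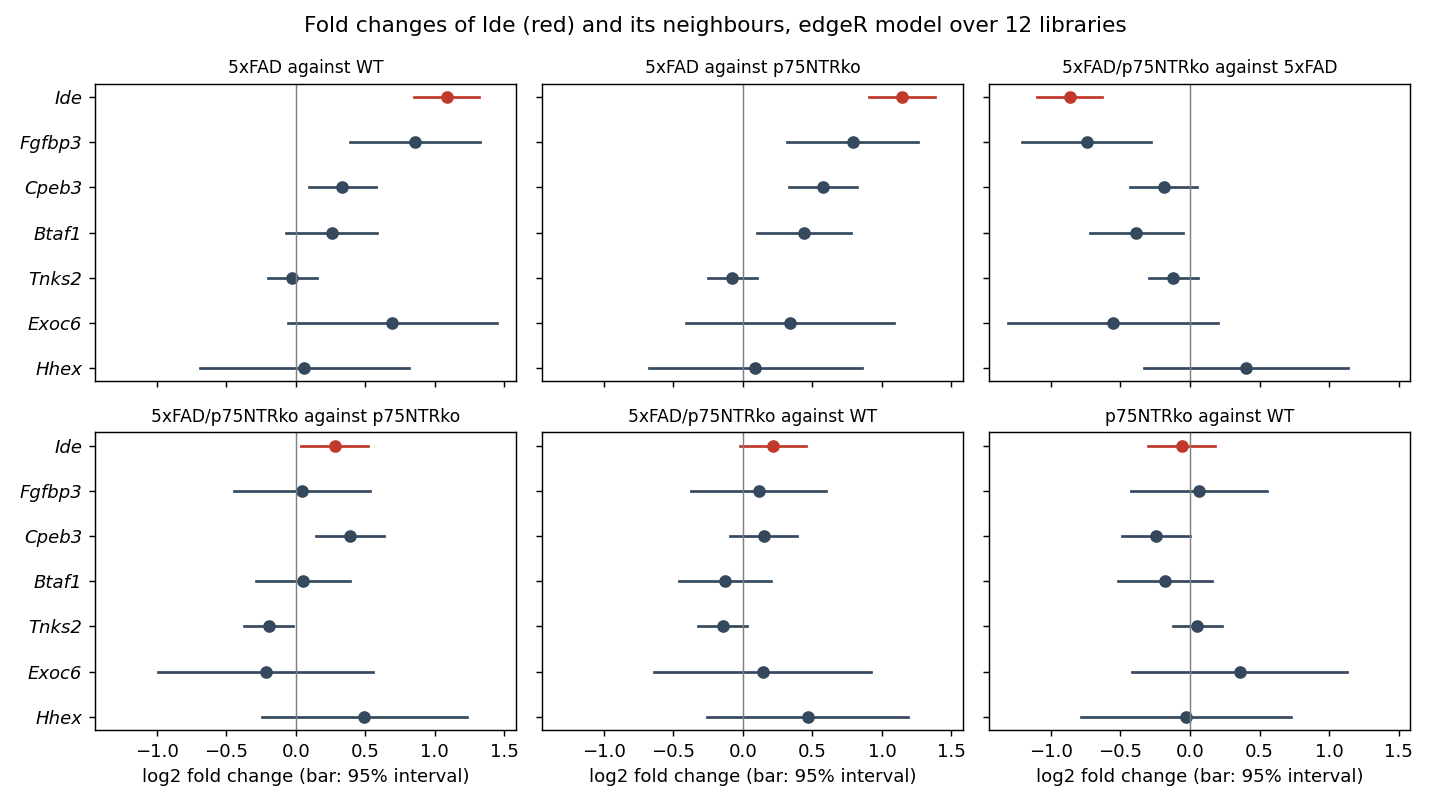
Log2 fold change of Ide and the 6 neighbours in the 6 pairwise comparisons, with bars giving the 95% interval of the edgeR fit over 12 libraries. Ide stands at 1.08 in 5xFAD against WT and at -0.87 in 5xFAD/p75NTRko-labelled against 5xFAD; the intervals of Fgfbp3 leave out 0 in both, and those of Tnks2 and Hhex include 0 in both.

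Of the remaining genes within 0.5 Mb, March5, a ubiquitin ligase of the mitochondrial outer membrane that lies 44.3 kb from Ide, read 67.9 to 75.3 CPM in WT and 63.1 to 75.4 CPM in 5xFAD. Its range was 70.9 to 76.7 CPM for the p75NTRko label alone and 68.8 to 82.1 CPM for both labels. All 4 genotypes overlapped, and its log2 fold change in 5xFAD against WT was -0.08 (95% interval -0.29 to 0.14, adjusted p = 0.747). 4931408D14Rik, a long noncoding RNA whose nearest edge lies 4.65 kb past the 3′ end of Ide, varied widely within genotypes, and the ranges of all 4 overlapped. It ran from 1.78 to 26.5 CPM, with 13.7 CPM in WT replicate 3 and 26.5 CPM in 5xFAD/p75NTRko-labelled replicate 2. It was higher in those libraries than in any 5xFAD library, while Ide was not. Below the filter were Kif11, the mitotic kinesin, with 0 to 9 counts a library, Cyp26a1, which degrades retinoic acid, with 0 to 7, and A330032B11Rik. Cyp26c1 and 1700122C19Rik had 0 counts in all 12 libraries.

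The members nearest the 0.5 Mb limit are Fgfbp3, at 349 kb, and Tnks2, at 375 kb, and the first genes beyond it with reads past the filter are Ppp1r3c, at 532 kb, and Myof, at 564 kb. Ppp1r3c, a subunit that targets protein phosphatase to glycogen, averaged 79.2 ± 7.74 CPM in WT, and its means in the other 3 genotypes were all higher: 93.9 ± 7.52 in 5xFAD, 91.3 ± 4.31 for the p75NTRko label alone and 96.7 ± 9.40 for both labels. Myof, the membrane protein myoferlin, averaged 12.4 ± 5.40 CPM in WT and 7.34 ± 3.57 in 5xFAD, with 12.9 ± 2.56 for the p75NTRko label alone and 9.07 ± 3.10 for both labels.

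Within 0.5 Mb of Ide, 8 genes other than Ide were tested. Their median log2 fold change in 5xFAD against WT was 0.16, where all genes had a median of -0.0036, and 2 of 8 had an unadjusted p under 0.05, both higher. In 5xFAD/p75NTRko-labelled against 5xFAD the median of the 8 was -0.15, and 2 of 8 (25%, against 5.08% of all genes) had an unadjusted p under 0.05, both lower. With the distance widened, the share of genes at an unadjusted p under 0.05 in 5xFAD against WT went from 20% of 15 genes within 1 Mb to 13.6% of 22 within 2 Mb, 13.0% of 69 within 5 Mb and 13.5% of 155 within 10 Mb, with 13.9% over all genes. In 5xFAD/p75NTRko-labelled against 5xFAD the share was 13.3%, 13.6%, 10.1% and 6.45% at the same distances, with 5.08% over all genes. In 5xFAD against p75NTRko-labelled it was 37.5% of the 8 within 0.5 Mb, then 26.7%, 18.2%, 10.1% and 8.39%, with 7.2% over all genes. These comparisons share the 5xFAD libraries. By edgeR 0 genes other than Ide were called at any of these distances in any comparison. DESeq2 called 1 within 5 Mb, Cpeb3 in 5xFAD against p75NTRko-labelled.

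The 3 smallest p-values within 10 Mb in 5xFAD against WT belonged to Fgfbp3, to D19Bwg1357e (Pum3 in RefSeq), an RNA-binding protein of the nucleolus, and to Gldc, a subunit of the glycine cleavage system. D19Bwg1357e had a log2 fold change of 0.62 (adjusted p = 0.214) and Gldc of 0.87 (adjusted p = 0.236). They lie 9839 kb and 7093 kb from Ide.

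**Figure D4:**
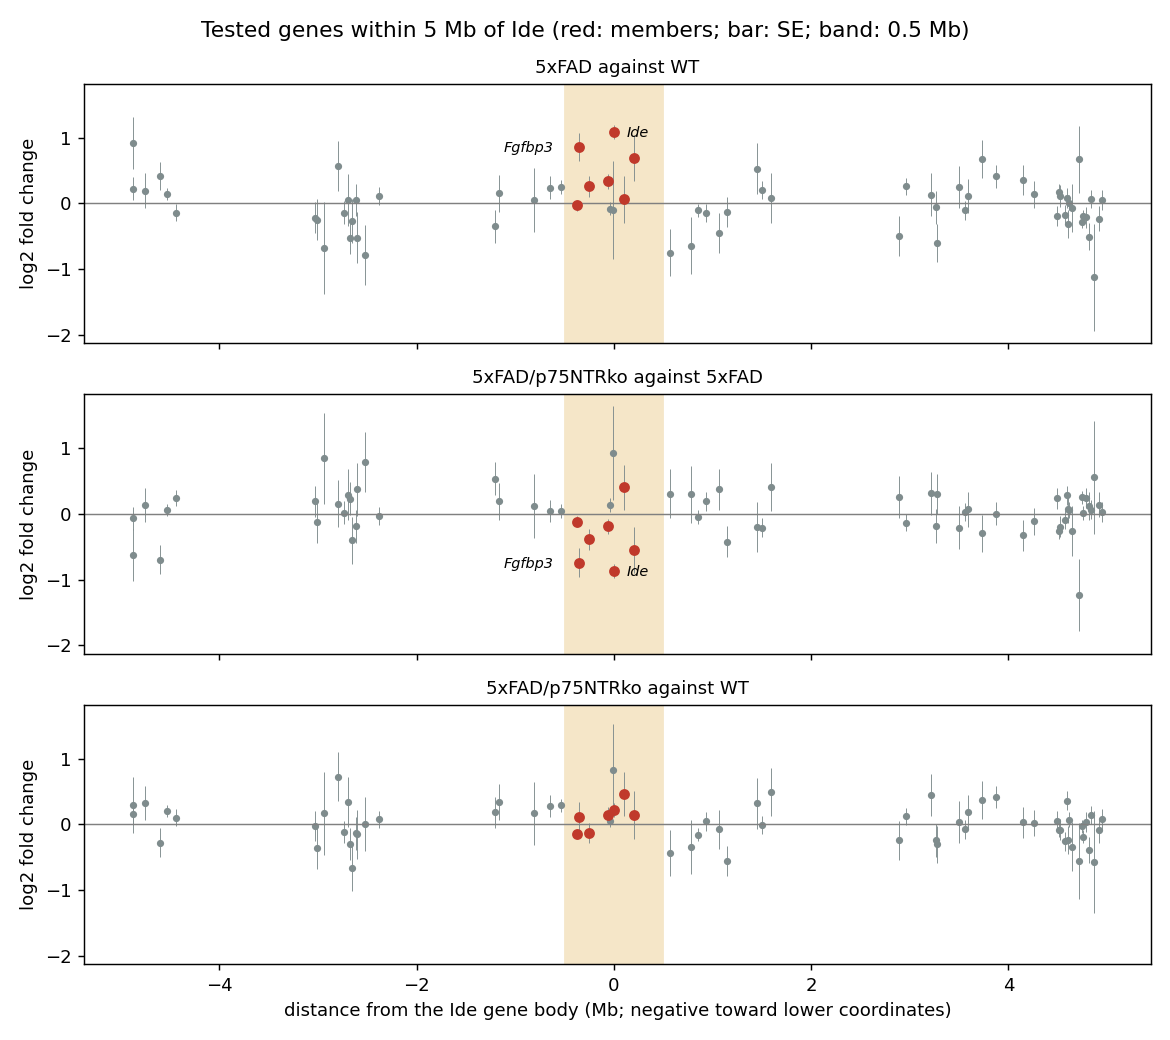
Log2 fold change of each tested gene within 5 Mb of Ide against its distance from the Ide gene body in Mb, for 3 comparisons; red points are Ide and its 6 neighbours, bars are 1 standard error and the band marks 0.5 Mb. In 5xFAD against WT Ide is the highest, at 1.08, and Fgfbp3 is at 0.86, while genes outside the band run from -1.13 to 0.92. Genes outside the band scatter to both sides of 0 in each comparison.

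Over the 12 libraries, the highest correlations with Ide belonged to genes elsewhere, a pool far larger than its neighbours. The median r with Ide over all genes was -0.0006. By Pearson r of log2 CPM, the 5 highest of 13064 genes were Crebbp, a histone acetyltransferase (r = 0.94), Peg3, an imprinted zinc finger gene (0.92), Vps35, a core subunit of the retromer, which sorts endosomal proteins (0.91), Hook3, a dynein adaptor (0.90), and Ankrd12 (0.90). Among the 5 lowest were Zfp874a (-0.91), Morn4 (-0.87), Sgsm3 (-0.86) and Gstz1 (-0.85). Fgfbp3 ranked 46 with an r of 0.85 and Cpeb3 ranked 152 with 0.77, followed by Btaf1 (0.65), Exoc6 (0.51), Hhex (-0.08), Tnks2 (-0.17) and March5 (-0.52). These are descriptions over libraries that share a batch label and a depth range. Without the 5xFAD libraries, r over the other 9 was 0.83 for Vps35, 0.74 for Peg3, 0.70 for Crebbp, 0.45 for Hook3 and 0.42 for Ankrd12. The neighbours then ran from 0.71 for Hhex and 0.63 for Cpeb3 through 0.29 for Fgfbp3, 0.0023 for Exoc6 and -0.20 for Btaf1 to -0.74 for Tnks2, and March5 was at -0.27. Vps35 was the 1 of the 5 that was also among the 5 highest by Spearman rho (0.97). Vps35 averaged 157 ± 6.14 CPM in WT and 191 ± 8.97 in 5xFAD. Its mean was 161 ± 2.53 CPM for the p75NTRko label alone and 173 ± 8.38 CPM for both labels.

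Genes with functions close to those of Ide and its neighbours were read from 8 lists of 118 symbols, of which 115 were in the table and 101 passed the filter. By edgeR 0 of the 101 were called in all 7 comparisons, and by DESeq2 0 as well. At an unadjusted p under 0.05 edgeR had 9 higher and 4 lower in 5xFAD against WT, 12.9% of the list genes against 13.9% of all genes. It had 1 higher and 1 lower in 5xFAD/p75NTRko-labelled against 5xFAD, 1.98% against 5.08%. The list shares were above those of all genes in p75NTRko-labelled against WT (14.9% against 11.5%), in 5xFAD/p75NTRko-labelled against p75NTRko-labelled (8.91% against 6.6%) and in 5xFAD against p75NTRko-labelled (8.91% against 7.2%). They were below in 5xFAD/p75NTRko-labelled against WT (8.91% against 9.95%) and in the interaction (7.92% against 9.32%).

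Among the other enzymes that degrade amyloid-beta, 12 were tested and 0 had an unadjusted p under 0.05 in 5xFAD against WT. Their median log2 fold change was -0.08. The smallest p-values were those of Ace, angiotensin-converting enzyme, which averaged 10.04 ± 2.21 CPM in WT and 5.29 ± 2.97 in 5xFAD (log2 fold change -0.89, adjusted p = 0.432), and of Mme, neprilysin, at 4.10 ± 1.58 and 2.39 ± 0.292 CPM (-0.78, adjusted p = 0.439). Ace is abundant in choroid plexus, and the sum of choroid plexus markers was also lower in 5xFAD than in WT; its part in this value was not tested. The other 6 members of the M16 family had a median of 0.21 and a maximum of 0.32, and 5 of 6 were positive. Those with the smallest p were the mitochondrial proteins Uqcrc2 (0.25, adjusted p = 0.325) and Pmpca (0.27, adjusted p = 0.341). Ide, which was chosen for its high level, stood at 1.08.

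In the insulin and IGF list, 28 tested genes had a median of -0.06. Igfbp6, an IGF-binding protein, had a log2 fold change of -1.13 (adjusted p = 0.236) and Pdpk1, the kinase that activates Akt, of 0.29 (adjusted p = 0.280). The 10 FGF genes, the partners of Fgfbp3, had a median of 0.14, with Fgf13 at 0.36 (adjusted p = 0.325) and the receptor Fgfr1 at 0.37 (adjusted p = 0.326). The 13 CPEB and polyadenylation genes had a median of 0.06, with Cpeb1 at 0.28 (adjusted p = 0.306) and Cpeb4 at 0.37 (adjusted p = 0.409).

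The 7 tankyrase genes had a median of 0.32 with 6 of 7 positive. Tnks, the paralog of Tnks2, averaged 6.65 ± 1.76 CPM in WT and 10.98 ± 2.61 in 5xFAD (log2 fold change 0.72, adjusted p = 0.272), and Rnf146, the ubiquitin ligase that reads tankyrase marks, stood at 0.37 (adjusted p = 0.306). Tnks2 itself stood at -0.03. The 8 exocyst subunits had a median of 0.02, from Exoc7 at -0.17 (adjusted p = 0.560) to Exoc6b, the paralog of Exoc6, at 0.27 (adjusted p = 0.571). The 17 genes around the TATA-binding protein had a median of 0.06, with Brf1 at -0.33 (adjusted p = 0.304) and Gtf2a1 at 0.34 (adjusted p = 0.355). The median of all genes was -0.0036, and none of these list members passed the threshold.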

How the data were processed

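QuantSeq forward 3′ mRNA libraries were made from hippocampal total RNA, per the labels' protocols. The authors deposited raw read counts per gene for 12 libraries in 1 table. The submitters' processing notes name FastQC, HISAT2, SAMtools, HTSeq, edgeR and mm10, with no versions, and the strand setting is not given in the sources used here. Reads in the 5 summary lines of the table (61.5 to 67.8% of each library's total, of which 28.9 to 33.5 percentage points fell in no feature) entered neither library sizes nor tests. The share in no feature was 32.4 to 33.5% in the transgene carriers and 28.9 to 31.3% in the other libraries. Its part in the Ide level was not tested.

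From the counts, genes were filtered with filterByExpr by genotype, and counts scaled to 1000000 per library (CPM) were taken on TMM-scaled library sizes. Fold changes and p-values came from edgeR 4.0.16 (R 4.3.3) quasi-likelihood fits with a mean per genotype over all 12 libraries, adjusted by Benjamini-Hochberg over the 13065 genes that passed, with 0.05 as the threshold. Ide was given no test. Log2 CPM for correlations used a prior count of 2. The fits were repeated with RLE size factors, DESeq2 1.42.0, all genes unfiltered, only the genotypes compared, the replicate number as a block, Xist class (split at 50 CPM) as a term, and each library left out. The Xist term rests on p75NTRko-labelled replicate 1 against replicates 2 and 3, because no other genotype held both classes. The edgeR step was tested on simulated data. Replicates of a genotype differed by more than sampling noise. Each p-value sets a difference between genotypes against a spread between replicates that was estimated over all 4 genotypes together. Replicates differed more in WT and 5xFAD/p75NTRko-labelled than in 5xFAD and p75NTRko-labelled.

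Named genes were the 7 members, all genes of the table within 0.5 Mb of Ide, the 3 with the smallest p within 10 Mb in 5xFAD against WT, the 2 with the smallest p in that comparison from each pathway list, and the 5 highest and 5 lowest by Pearson r with Ide, of which 1 is not reported here. The genes with the nearest 5xFAD gap, and those just beyond 0.5 Mb, were named after their values were seen. The members and lists were chosen with earlier results of these data known. Promoter windows and positions are from RefSeq (GRCm38.p6), gene models from GENCODE.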

Additional observations from a re-analysis of the deposited data

How the results depend on the processing

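Ide kept its direction under all alternatives run in 6 of the 7 comparisons. In p75NTRko-labelled against WT, where it was near 0, it ran from -0.09 to 0.01. Its log2 fold change in 5xFAD against WT was 1.19 with Xist class as a term and 1.06 to 1.10 with each library left out. Its interaction was -0.97 with Xist class and -0.90 to -0.76 with each library left out, the first of these without 5xFAD/p75NTRko-labelled replicate 1. The cause of these shifts was not tested. The number of neighbours called went from 0 to 1 in 5xFAD against WT without WT replicate 3 (Fgfbp3; range over left-out libraries 0 to 1). It went from 0 to 1 in 5xFAD against p75NTRko-labelled with DESeq2, with no filter, with only the genotypes compared, and without WT replicate 2 or 5xFAD/p75NTRko-labelled replicate 3 (Cpeb3; range over left-out libraries 0 to 1). No neighbour was called in the other 5 comparisons under any alternative run.

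Signs that turned belonged to values that were not called under any setting. With Xist class as a term these were Tnks2 in 5xFAD against WT (0.0049), Hhex in p75NTRko-labelled against WT (0.051), Btaf1 in 5xFAD/p75NTRko-labelled against p75NTRko-labelled (-0.012) and the Cpeb3 interaction (-0.075). Over left-out libraries, log2 fold changes in 5xFAD against WT ran from -0.058 to 0.012 for Tnks2 and from -0.36 to 0.39 for Hhex. In p75NTRko-labelled against WT they ran from -0.14 to 0.32 for Fgfbp3 and from -0.14 to 0.061 for Hhex. In 5xFAD/p75NTRko-labelled against p75NTRko-labelled they ran from -0.028 to 0.12 for Fgfbp3 and from -0.13 to 0.17 for Btaf1, and against WT from -0.089 to 0.36 for Fgfbp3 and from -0.19 to 0.36 for Exoc6. In 5xFAD against p75NTRko-labelled Hhex ran from -0.33 to 0.42, and the Cpeb3 interaction ran from -0.055 to 0.15.

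Same-numbered libraries correlated at -0.42 to 0.14 in their deviations from the genotype means, and 2 of 12 libraries correlated best with their own number, so the numbers were not taken as pairs. With the replicate block, Ide stood at 1.09 in 5xFAD against WT and -0.81 in the interaction, and 0 neighbours were called in all 7 comparisons. Counts over all genes moved more: in 5xFAD against WT 7 genes were called in the main design, 1 with the block, 0 with Xist class, 98 with DESeq2, 44 with no filter, 19 with only the genotypes compared and 1 to 57 with a library left out, the highest of these without WT replicate 3. In 5xFAD against p75NTRko-labelled the count was 11, with a range of 1 to 219 over the alternatives. Of the 5 genes most like Ide by Pearson r, 1 was among the 5 by Spearman rho. Exoc6 rested on 7 to 24 counts a library and Hhex on 10 to 34.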
